A study of Mus musculus with 42 samples.

Results

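The 42 genes described here are a module of interferon-stimulated genes, chosen by name from genes that type I or type II interferon is known to induce. They were looked up by symbol among 26321 named genes of the CD1 table and 35972 genes of the C57BL/6 table, and all 42 were found in both and passed the filter on low values in both. RNA-seq, a count of transcripts per gene, and ATAC-seq, in which a transposase cuts accessible DNA, were run on sorted mouse lung mesenchymal cells. In CD1 mice with a Col1a1-GFP reporter, GFP-positive cells that lacked CD45, EpCAM and CD31 (surface markers of leukocytes, epithelium and endothelium) were grown for 5 days in serum-containing medium on gels of silicone, coated with collagen, whose stiffness was 0.2 kPa (3 libraries per assay) or 32 kPa (3 libraries), or were collected directly after the sort from sham lungs (3 libraries). In C57BL/6 mice, cells carrying a Col1a2 lineage label and lacking CD45 and EpCAM were sorted 14 days after bleomycin (4 libraries), 56 days after bleomycin (4 libraries) or after sham treatment (4 libraries). Bleomycin is a drug that injures the lung and is followed by scarring. All cultured and sham CD1 cells carried the reporter, and all C57BL/6 cells carried the lineage label, whose Col1a2 driver restricts the sample to cells that express or once expressed that collagen gene. Whether each replicate is its own animal or dish is not stated in the labels, so the spread behind each p-value may be technical.

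Cells respond to interferons through receptors on the cell surface. The type I receptor, IFNAR, activates the kinases JAK1 and TYK2, which phosphorylate STAT2, and STAT2 joins IRF9 in ISGF3, a factor that binds the interferon-stimulated response element (ISRE) in promoters. Interferon gamma acts through its own receptor, and its signal reaches promoters at the gamma-activated site (GAS). The induced proteins sense viral nucleic acids, block viral replication, or raise the display of peptides on MHC class I molecules, and many of them are also made at a low, tonic level without infection. In lung, fibroblasts as well as leukocytes are known to express such genes.

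The RNA libraries held 35858180 to 69524944 reads in CD1 and 14288605 to 51288435 in C57BL/6, recovered from the deposited values. The summed level of 6 mesenchymal markers was highest in the day 14 libraries of C57BL/6, where it was 36447 to 48053 reads per 1000000 of the library total (CPM), against 19421 to 24411 in sham. In CD1, it was 4563 to 5371 CPM on 0.2 kPa and 4394 to 4728 CPM on 32 kPa, against 30115 to 34624 CPM in sham. All 6 of these markers, Col1a1 among them, were called lower on both gels. C57BL/6 sham replicates 1 and 2 and day 56 replicates 2 and 3 had the fewest genes detected, and results that rest on them are given with and without them in the closing section.

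Promoters of 32 of the 42 genes were found in a RefSeq table of build GRCm38.p6 and searched on both strands over the 250 bases before the start. The ISRE core (GAAA, any 2 bases, then GAAA again, on either strand) was present in 15 of the 32 genes (46.88%), against 3.463% of 27025 genes in the table. The GAS core TTCNNNGAA, which reads the same on both strands, was present in 6 of the 32 (18.75%), against 8.13%. Both cores were found in 4 genes, and matches that overlap each other were counted separately. A match is a description of the letters and not evidence that a factor bound there.

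The 150 bases before the start of 6 genes are shown, 5′ to 3′ on the strand of the gene, with the ISRE and GAS matches in capitals. They are Isg15 at chr4:156200819-156200968 (minus strand), which had 3 overlapping ISRE matches, Gbp2 at chr3:142620513-142620662 (plus strand), Irgm1 at chr11:48871421-48871570 (minus strand), B2m at chr2:122147537-122147686 (plus strand), Oas1a at chr5:120907526-120907675 (minus strand) and Igtp at chr11:58199406-58199555 (plus strand). They were chosen because Isg15 and Gbp2 carry the culture result, Irgm1 and B2m carry an ISRE core and stand apart from it in RNA, and Oas1a and Igtp are the members whose start lay in a region that changed in accessibility after bleomycin.
Isg15: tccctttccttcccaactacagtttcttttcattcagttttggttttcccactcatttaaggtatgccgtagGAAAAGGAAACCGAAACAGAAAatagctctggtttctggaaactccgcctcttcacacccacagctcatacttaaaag
Gbp2: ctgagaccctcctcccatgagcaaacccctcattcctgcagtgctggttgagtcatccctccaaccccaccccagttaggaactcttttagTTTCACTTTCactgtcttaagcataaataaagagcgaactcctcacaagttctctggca
Irgm1: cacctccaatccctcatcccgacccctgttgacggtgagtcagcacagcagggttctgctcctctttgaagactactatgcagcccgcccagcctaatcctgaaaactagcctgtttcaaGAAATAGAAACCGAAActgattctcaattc
B2m: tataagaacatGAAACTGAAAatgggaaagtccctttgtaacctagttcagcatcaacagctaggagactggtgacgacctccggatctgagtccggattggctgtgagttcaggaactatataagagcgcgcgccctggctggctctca
Oas1a: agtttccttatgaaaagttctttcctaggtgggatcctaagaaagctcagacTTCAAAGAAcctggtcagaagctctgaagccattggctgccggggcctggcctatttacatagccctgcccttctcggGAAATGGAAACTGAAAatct
Igtp: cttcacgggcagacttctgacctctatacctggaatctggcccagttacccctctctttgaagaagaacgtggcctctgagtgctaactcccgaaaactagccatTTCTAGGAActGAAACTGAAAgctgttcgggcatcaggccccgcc

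Cells grown on either gel expressed most of these genes at a small fraction of the level in freshly sorted sham cells. On 0.2 kPa, 38 of the 42 genes fell and 1 rose relative to CD1 sham (limma on log2(rescaled value + 1), Benjamini-Hochberg adjusted p of 0.05), whereas 39.2% of all 18478 genes tested were called lower and 31.9% higher. On 32 kPa, 39 fell and 1 rose, against backgrounds of 41% and 32.4%. The median log2 fold of the 42 genes was -2.86 on 0.2 kPa and -3.34 on 32 kPa, while that of all genes tested was -0.22 and -0.26. Levels are given as CPM, and each log2 fold, with its SE, comes from the limma fit of the rescaled values. On the rescaled values, every gel library lay below every sham library in 38 genes on 0.2 kPa and in 39 on 32 kPa, as was so for 41.9% and 40.7% of all genes. On CPM the counts were 37 and 38, since B2m on 0.2 kPa and Irgm1 on 32 kPa then overlapped with sham, against 37.5% and 37.6% of all genes.

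**Figure D1:**
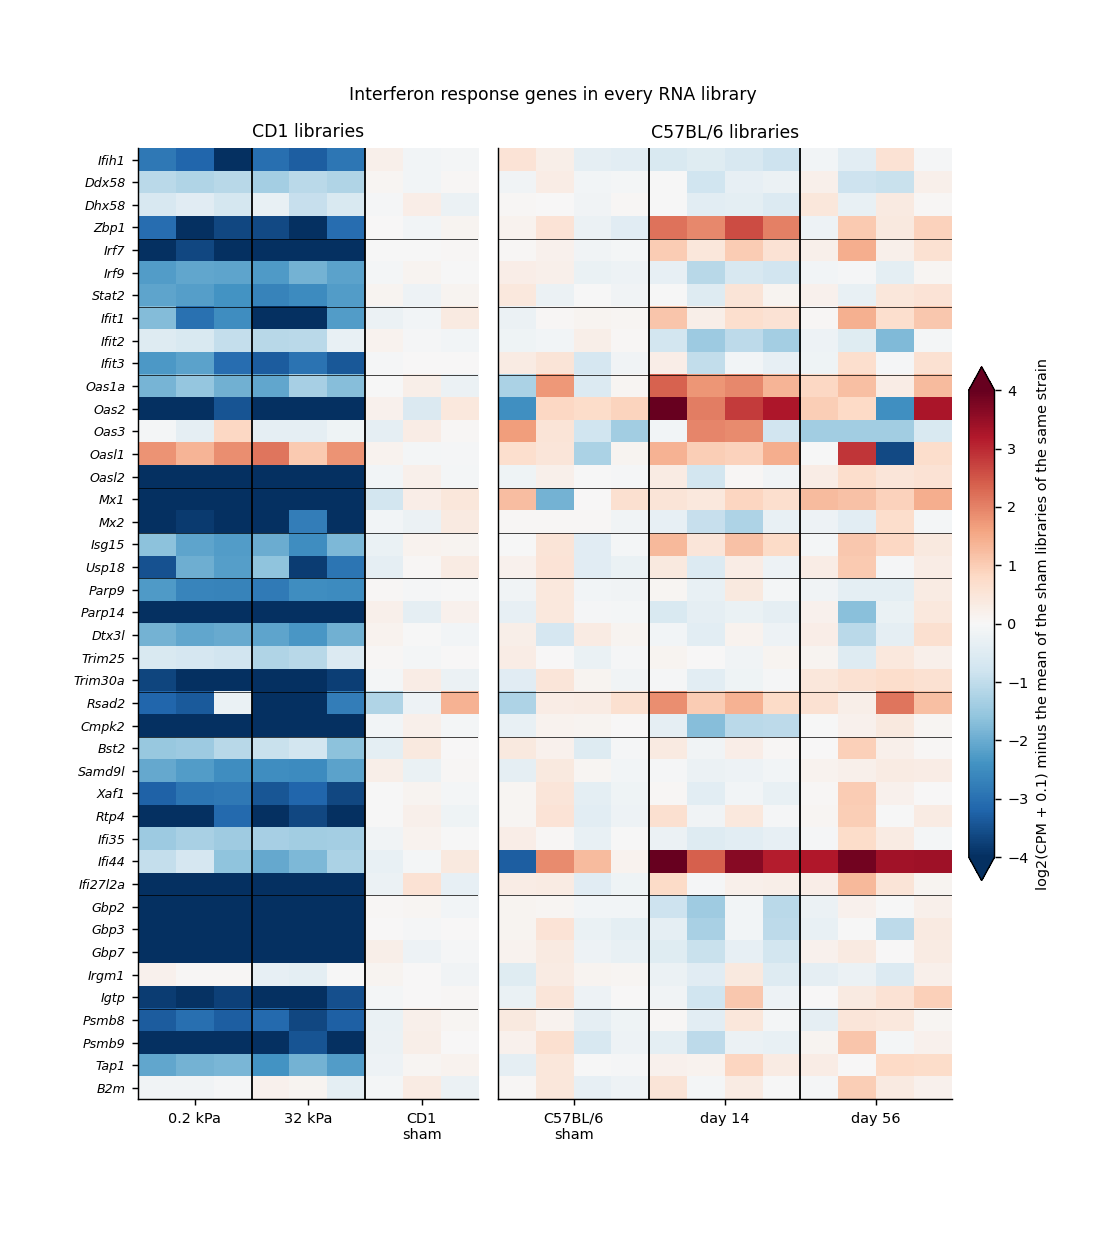
Level of each of the 42 genes (rows, ordered by role) in each of the 21 RNA libraries (columns), as log2(CPM + 0.1) minus the mean of the sham libraries of the same strain, with the colour scale ending at 4 in either direction. Most rows are deep in the lower colours in all 6 gel libraries, Oasl1 is in the higher colours there, and the bleomycin libraries stay near the sham mean apart from single genes such as Zbp1 at day 14.

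All 4 nucleic acid sensors of the module fell on both gels. Ifih1, encoding the RNA sensor MDA5, had 2.44, 1.92 and 0.940 CPM on 0.2 kPa and 2.16, 1.77 and 2.38 CPM on 32 kPa, against 20.9, 16.9 and 17.2 CPM in sham. No gel library came near the sham range, and the log2 fold was -3.66 ± 0.31 on 0.2 kPa (SE, adjusted p 1.4e-06) and -3.24 ± 0.31 on 32 kPa. Zbp1, a sensor of Z-form nucleic acids that can trigger cell death, had the largest change of the group, with 0.388, 0.107 and 0.229 CPM on 0.2 kPa and 0.233, 0.0619 and 0.389 CPM on 32 kPa, against 4.0, 3.68 and 4.24 CPM in sham (-4.27 ± 0.60 and -4.41 ± 0.60). Without 32 kPa replicate 2 the second of these folds was -3.76. Ddx58, which encodes RIG-I, changed by -1.33 ± 0.11 and -1.34 ± 0.11. Dhx58, which encodes the related helicase LGP2, had the smallest change, -0.81 ± 0.24 and -0.76 ± 0.24.

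All 3 transcription factors of the module fell on both gels. Stat2 had 8.80, 8.24 and 7.29 CPM on 0.2 kPa and 5.97, 6.66 and 8.18 CPM on 32 kPa, against 41.5, 33.5 and 41.1 CPM in sham, a log2 fold of -2.45 ± 0.15 (adjusted p 9.3e-08) and -2.61 ± 0.15. The libraries of each gel stayed within a narrow band well below sham. Irf7, the factor that amplifies type I interferon transcription and is itself interferon-induced, fell more steeply. It had 0.496, 0.704 and 0.508 CPM on 0.2 kPa and 0.408, 0.371 and 0.479 CPM on 32 kPa, against 9.82, 9.86 and 10.2 CPM in sham (-4.29 ± 0.26, adjusted p 9.8e-08, and -4.64 ± 0.26). Irf9, the DNA-binding part of ISGF3, changed by -2.35 ± 0.14 and -2.22 ± 0.14. In the annotation, Irf7 overlaps Phrf1 on the opposite strand and Irf9 overlaps Rnf31 on the same strand. No source used here says whether the counting used strand, which would not separate Irf9 from Rnf31 in any case. A share of the reads of Irf7 and Irf9 could therefore belong to those neighbours.

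Among the antiviral effectors the IFIT genes, whose proteins bind foreign RNA, fell in 3 of 3 cases on both gels. Ifit3 had 2.33, 2.63 and 1.35 CPM on 0.2 kPa and 1.08, 1.44 and 1.03 CPM on 32 kPa, against 11.4, 12.1 and 12.1 CPM in sham. Ifit1 had 1.51, 0.576 and 0.864 CPM on 0.2 kPa and 0.117, 0.165 and 1.05 CPM on 32 kPa, against 4.44, 4.92 and 6.76 CPM in sham. The gel libraries of both genes were all below sham, and Ifit1 in 32 kPa replicate 3 stood above the other 32 kPa libraries (log2 fold -4.27 ± 0.67 with it and -5.16 without it). Ifit2 changed least, -0.89 ± 0.19 and -0.95 ± 0.19. Ifit3 has a near-identical paralogue, so reads of the pair may have been split between them.

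The 2 Mx genes, encoding dynamin-like GTPases that trap viral components, were nearly silent on the gels. No read of Mx1 was recovered from any of the 6 gel libraries, against 409 reads over the 3 sham libraries, which had 1.18, 2.48 and 2.85 CPM. Taking 3 reads over a group as the floor, Mx1 was at least 97.4-fold lower on 0.2 kPa and at least 110.0-fold lower on 32 kPa. Mx2 had 0.0862, 0.149 and 0.0254 CPM on 0.2 kPa and 0.0291, 0.412 and 0.0898 CPM on 32 kPa, against 3.14, 2.88 and 4.40 CPM in sham. On 32 kPa its log2 fold was -4.81 ± 0.74, and -4.11 without replicate 1 and -5.66 without replicate 2. Mx1 and Mx2 are paralogues.

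The OAS family, whose members make or resemble enzymes that make the oligoadenylate messenger of RNase L, was the only role with a member that rose. Oas2 had 0, 0 and 0.127 CPM on 0.2 kPa and no reads on 32 kPa, against 2.66, 1.55 and 3.19 CPM in sham, which makes it at least 121-fold lower on 32 kPa. On 0.2 kPa its fitted log2 fold was -6.03 ± 0.72, and -6.95 without replicate 3. Oasl2, an OAS-like protein, had 0.884, 0.811 and 0.610 CPM on 0.2 kPa and 0.758, 0.680 and 0.643 CPM on 32 kPa, against 21.8, 26.7 and 21.9 CPM in sham (-5.10 ± 0.24 and -5.16 ± 0.24). Oas1a fell as well, by 2.53 and 2.39 on the log2 scale. Oas1a has close paralogues beside it, and its counts are uncertain for that reason. Oas3 was close to the limit of detection, with 0.0216, 0 and 0.127 CPM on 0.2 kPa and 0, 0 and 0.0150 CPM on 32 kPa, against 0, 0.0591 and 0.0327 CPM in sham, and no change was detectable at this depth.

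Oasl1, known in mouse as a repressor of Irf7 translation, went the other way. It had 2.24, 1.64 and 2.36 CPM on 0.2 kPa and 2.89, 1.30 and 2.21 CPM on 32 kPa, against 0.635, 0.532 and 0.557 CPM in sham. Every gel library lay above every sham library. The log2 fold was 1.61 ± 0.34 on 0.2 kPa (adjusted p 0.00133) and 1.66 ± 0.34 on 32 kPa (adjusted p 0.00102), and it was between 1.53 and 1.81 under the other scalings and count tests tried.

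All remaining effectors fell on both gels: 2 of 2 in the ISG15 system, 5 of 5 PARP and ubiquitin ligase genes, 2 of 2 metabolite enzymes and 7 of 7 other antiviral genes. On 0.2 kPa the call of Ifi44 was lost without 0.2 kPa replicate 3 or sham replicate 3 (adjusted p 0.0689 and 0.0619). Isg15, a ubiquitin-like protein attached to other proteins during the response, had 1.70, 1.20 and 1.09 CPM on 0.2 kPa and 1.31, 0.907 and 1.51 CPM on 32 kPa, against 4.58, 6.04 and 5.94 CPM in sham (-2.25 ± 0.28 and -2.28 ± 0.28). Usp18, the protease that removes ISG15 and dampens receptor signalling, had 0.151, 0.619 and 0.508 CPM on 0.2 kPa and 0.816, 0.103 and 0.269 CPM on 32 kPa, against 2.08, 2.78 and 3.37 CPM in sham. The gels did not overlap with sham for either gene. On 32 kPa the log2 fold of Usp18 was -3.25 ± 0.69, and -3.98 without replicate 1 and -2.59 without replicate 2. Cmpk2, a mitochondrial nucleotide kinase next to Rsad2 on chromosome 12, had 0.108, 0.128 and 0.127 CPM on 0.2 kPa and 0.175, 0.0619 and 0.359 CPM on 32 kPa, against 16.3, 20.3 and 16.6 CPM in sham (-7.15 ± 0.48 and -6.71 ± 0.48).

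Rsad2, which encodes viperin, an enzyme that makes a chain-terminating nucleotide, was the least settled call. It had 0.0862, 0.0640 and 1.30 CPM on 0.2 kPa and 0, 0 and 0.150 CPM on 32 kPa, against 0.635, 1.36 and 4.36 CPM in sham. The third 0.2 kPa library lay within the sham range. On 0.2 kPa the log2 fold was -2.97 ± 1.16 (adjusted p 0.0398), and edgeR (adjusted p 0.0779) and DESeq2 (adjusted p 0.209) did not call it. The call was also lost without 0.2 kPa replicate 1 or 2 or sham replicate 2 or 3 (log2 folds of -2.43, -2.25, -3.07 and -2.23, adjusted p 0.0826 to 0.158), and the fold was -4.23 without 0.2 kPa replicate 3 and -3.62 without sham replicate 1. On 32 kPa it was -5.36 ± 1.16 (adjusted p 0.00161), and -6.36 without replicate 3, -6.01 without sham replicate 1 and -4.63 without sham replicate 3.

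Bst2, encoding tetherin, which holds budding virus at the cell surface, had 7.37, 7.75 and 9.70 CPM on 0.2 kPa and 11.4, 12.6 and 6.67 CPM on 32 kPa, against 16.1, 27.9 and 21.3 CPM in sham (-1.57 ± 0.27 and -1.23 ± 0.27), all gel libraries below sham. Ifi27l2a had the largest fitted change of the 42 genes. It had 0.0431, 0 and 0.102 CPM on 0.2 kPa and 0.117, 0.0412 and 0.0449 CPM on 32 kPa, against 13.1, 23.3 and 12.4 CPM in sham (-8.31 ± 0.63 and -7.69 ± 0.63, and -7.63 on 0.2 kPa without replicate 2). Trim30a led the ligase group, with 0.582, 0.363 and 0.330 CPM on 0.2 kPa and 0.0291, 0.454 and 0.539 CPM on 32 kPa, against 8.13, 10.6 and 7.29 CPM in sham. Its log2 fold on 32 kPa was -5.31 ± 0.75, and -4.20 without replicate 1 and -5.91 without replicate 3. Parp9 and Dtx3l, which work as a pair and lie head to head on the genome with overlapping transcripts, changed by -2.74 ± 0.16 and -2.21 ± 0.15 on 0.2 kPa, and their reads cannot be told apart in the overlap.

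The immunity GTPases, which attack the vacuoles of intracellular pathogens and respond to interferon gamma in particular, had 4 of 5 genes lower on 0.2 kPa and 5 of 5 on 32 kPa. Gbp2 had 6.99, 6.00 and 5.08 CPM on 0.2 kPa and 4.17, 5.42 and 5.98 CPM on 32 kPa, against 155, 156 and 138 CPM in sham. Its log2 fold was -4.84 ± 0.16 (adjusted p 9.6e-10) and -4.99 ± 0.16. Gbp7 had 0.992, 0.726 and 0.788 CPM on 0.2 kPa and 0.816, 0.784 and 1.33 CPM on 32 kPa, against 47.4, 35.0 and 39.2 CPM in sham. The Gbp genes are paralogues in a cluster on chromosome 3, so the counting could have shared reads between them. Igtp, also called Irgm3, changed by -4.16 ± 0.33 and -4.49 ± 0.33 and overlaps Irgm2.

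Irgm1, a regulator of the other immunity-related GTPases that also acts in autophagy, did not follow its family. It had 46.5, 42.5 and 43.2 CPM on 0.2 kPa and 32.8, 31.5 and 41.1 CPM on 32 kPa, against 44.9, 42.4 and 37.5 CPM in sham. The 0.2 kPa libraries overlapped with sham, and the log2 fold there was -0.11 ± 0.11 (adjusted p 0.392), or 0.09 when libraries were scaled to total reads. On 32 kPa it was -0.38 ± 0.11 (adjusted p 0.0121), and -0.25 with an adjusted p of 0.0904 under that scaling, so this call depends on the scaling. Scaling to total reads gave a median log2 fold over all genes of -0.03 on 0.2 kPa and -0.14 on 32 kPa, in place of -0.22 and -0.26.

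In class I antigen processing, 3 of 4 genes fell on both gels. Psmb8 and Psmb9 encode catalytic subunits of the immunoproteasome and Tap1 a subunit of the peptide transporter. Psmb8 had 2.03, 2.52 and 2.03 CPM on 0.2 kPa and 2.36, 1.61 and 2.11 CPM on 32 kPa, against 17.6, 24.1 and 22.0 CPM in sham (-3.46 ± 0.21 and -3.51 ± 0.21). Psmb9 had 0.259, 0.320 and 0.178 CPM on 0.2 kPa and 0.117, 0.598 and 0.18 CPM on 32 kPa, against 6.38, 8.86 and 7.56 CPM in sham (-5.02 ± 0.51 and -5.00 ± 0.51, the second being -5.64 without 32 kPa replicate 2). Psmb9 and Tap1 share a start region in opposite directions, and reads in their overlap are uncertain. B2m, the light chain of every class I molecule, had 499, 507 and 537 CPM on 0.2 kPa and 629.8, 603 and 428 CPM on 32 kPa, against 527, 689 and 470.4 CPM in sham. On CPM its groups overlapped, although on the rescaled values the 0.2 kPa libraries lay below sham, with log2 folds of -0.31 ± 0.18 (adjusted p 0.154) and -0.15 ± 0.18 (adjusted p 0.478).

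**Figure D2:**
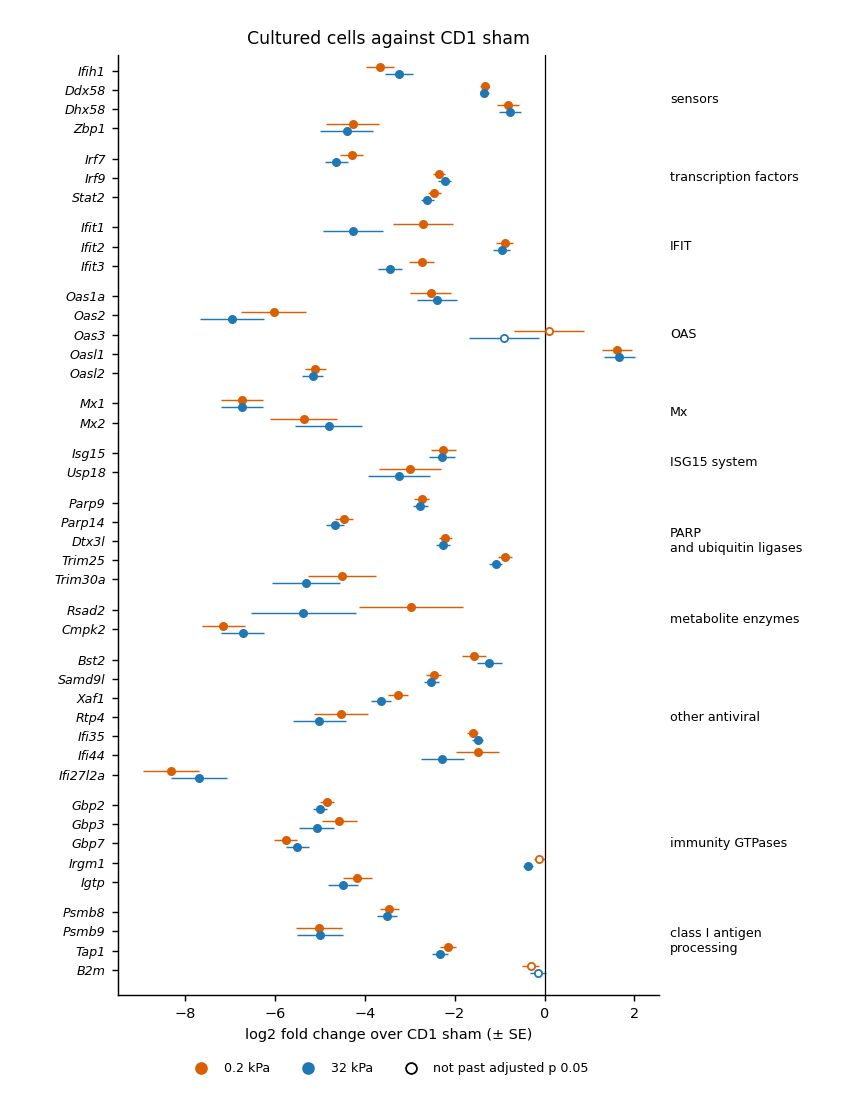
Log2 fold of each gene on 0.2 kPa (orange) and 32 kPa (blue) over CD1 sham, with bars of 1 SE from the limma fit and open symbols for genes that did not pass an adjusted p of 0.05, grouped by role. The points of both gels lie close together for most genes and below 0 for all but Oasl1 and, on 0.2 kPa, Oas3.

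No member was called between the gels. In 32 kPa against 0.2 kPa the test called 0 of 42 lower and 0 of 42 higher, as it called 0% and 0% of all genes, although 1010 of 18478 genes and 3 of the 42 had an unadjusted p under 0.05. The 3 were Ifit3 (-0.70 ± 0.27, p 0.0261), Ifit1 (-1.56 ± 0.67, p 0.0401) and Irgm1 (-0.26 ± 0.11, p 0.0441), each with an adjusted p of 0.788. Without 32 kPa replicate 3, Ifit1 was called lower on 32 kPa (log2 fold -2.45, adjusted p 0.021), and over all genes 338 were then called higher and 510 lower of 18530. Count tests on the recovered reads called 0 of the 42 as well. Over all genes, edgeR called 1 lower and 0 higher, and DESeq2 called 39 lower and 4 higher. The median log2 fold of the 42 genes was -0.06, against -0.01 over all genes.

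Many genes upstream of the module fell as well. No interferon gene of the 10 listed passed the filter on low values in CD1, and Ifnb1 had 0 reads in all 9 CD1 libraries. Of 7 receptor and kinase genes, 6 fell and none rose on 0.2 kPa, led by Ifngr1 (-2.30 ± 0.11), Ifnar2 (-1.42 ± 0.13), Jak1 (-1.15 ± 0.13) and Ifnar1 (-1.10 ± 0.09). Of 10 further transcription factors and cofactors, 9 fell. Among them were Irf8 (-6.37 ± 0.98), Ciita, the activator of class II genes (-4.56 ± 0.64), Irf1 (-4.46 ± 0.16) and Batf2 (-2.91 ± 0.34). On 32 kPa the counts were 6 of 7 and 8 of 10. Over all genes tested, 39.2% were called lower and 31.9% higher on 0.2 kPa, and 41% and 32.4% on 32 kPa.

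Beyond the module, class I presentation had 10 of 13 genes lower and 2 higher on both gels. The largest changes on 0.2 kPa were in Tapbp (-3.13 ± 0.16), H2-T23 (-3.09 ± 0.25), Erap1 (-2.97 ± 0.21) and H2-Q4 (-2.55 ± 0.13), whereas the general chaperones Canx (0.58 ± 0.11) and Calr (0.37 ± 0.11) were the genes that rose. Nucleic acid sensing was mixed, with 6 of 12 lower and 2 higher on 0.2 kPa, where 39.2% of all genes were lower and 31.9% higher. Tlr9 (-4.30 ± 0.56), Aim2 (-3.01 ± 0.70) and Tlr3 (-2.31 ± 0.15) fell, and Tlr7 (1.64 ± 0.41) and Mb21d1, the DNA sensor cGAS (1.43 ± 0.19), rose. Among 6 negative regulators 4 fell, led by Socs3 (-5.19 ± 0.12), and Ptpn2 rose (0.35 ± 0.09). The chemokines Cxcl10 (-5.48 ± 0.88) and Cxcl9 (-4.51 ± 0.52), both induced by interferon gamma, fell on 0.2 kPa.

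Other features of the samples moved with the same contrast. The summed level of 12 leukocyte genes was 16.9 to 24.7 CPM on 0.2 kPa and 13.9 to 14.4 CPM on 32 kPa, against 80.2 to 137 CPM in sham, and 10 of the 12 fell on each gel. Cd3e and Adgre1 were at 0 on 32 kPa. Of 4 genes listed for plasmacytoid dendritic cells, which secrete type I interferon, 3 fell on each gel, and Siglech, the most specific of them, had 0 reads in all gel libraries. Their sum was 106 to 112 CPM on 0.2 kPa and 84.2 to 108 CPM on 32 kPa, against 213 to 271 CPM in sham, most of it from Tcf4, which other cells also express. All 6 endothelial and all 6 epithelial markers fell. Summed endothelial markers were 8.64 to 10.6 CPM on 0.2 kPa and 6.31 to 9.80 CPM on 32 kPa, against 236 to 263 CPM in sham. Summed epithelial markers were 0.0862 to 0.235 CPM on 0.2 kPa and 0 to 0.284 CPM on 32 kPa, against 90.2 to 283 CPM in sham. Of 4 genes induced by tissue dissociation (Fos, Jun, Egr1 and Atf3), all fell on both gels, and of 4 cell cycle genes, all rose. The part of each of these in the change of the 42 genes was not tested. In bulk samples, fewer cells of a type and less RNA per cell cannot be told apart, and culture, the time after sorting and the medium cannot be told apart from each other.

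**Figure D3:**
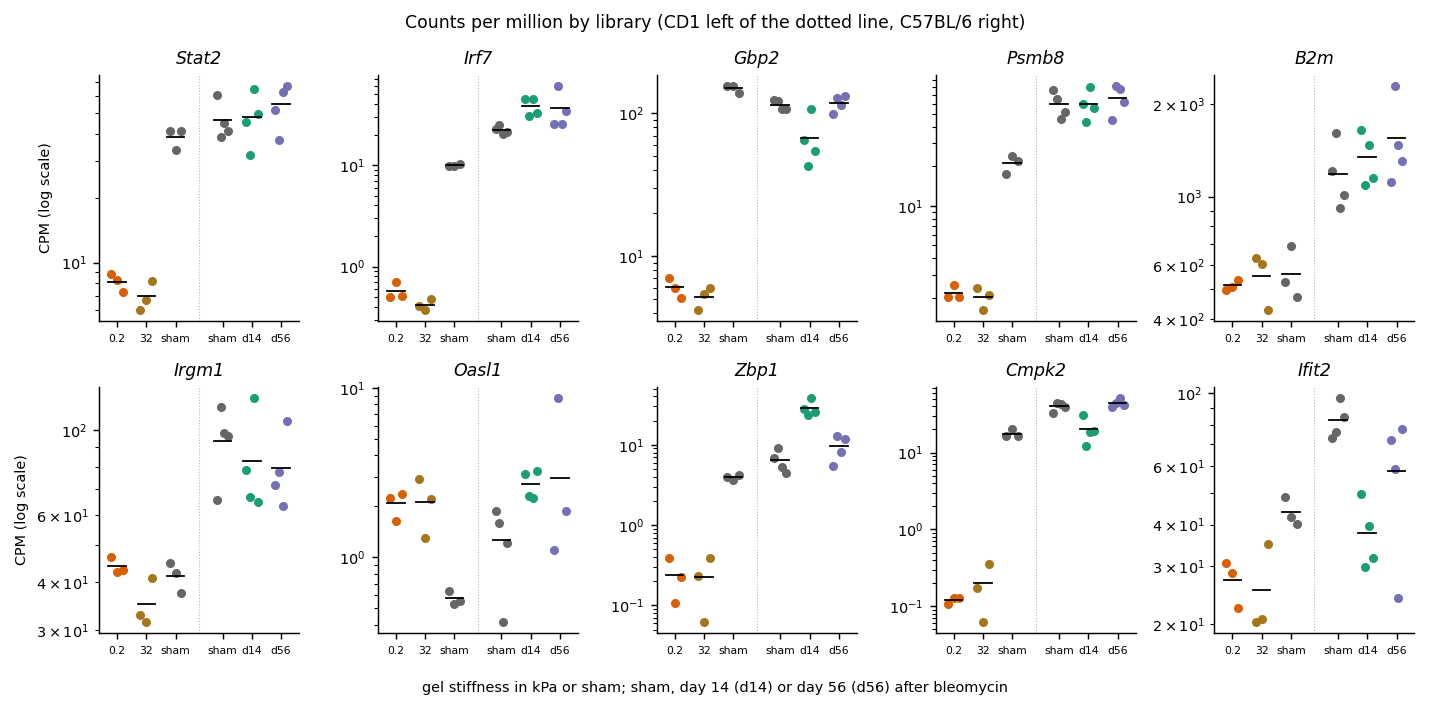
Level in CPM (log axis) of Stat2, Irf7, Gbp2, Psmb8, B2m, Irgm1, Oasl1, Zbp1, Cmpk2 and Ifit2 in each RNA library, with 1 point per library and a line at the group mean. The gel libraries lie well below CD1 sham in Stat2, Irf7, Gbp2, Psmb8, Zbp1 and Cmpk2, overlap with it in B2m and lie above it in Oasl1. One day 56 library with 0 reads of Oasl1 is not drawn.

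The accessibility lists give, as the authors' own values, the log2 fold of each region that passed their filters. In the 0.2 kPa list 37 regions lay within 1000 bases of the start of a member, belonged to 30 genes, and were all lower than in sham (median -2.57, range -3.74 to -1.32). Near-start regions were lower almost everywhere, in 98.82% of the 15602 in that list with a median of -2.69, so the members' share is near the background and is not a result about these genes. On 32 kPa the members again had 37 such regions, all lower (median -2.20, range -3.50 to -0.83), against 95.84% of 16070 with a median of -2.21. Neither gel list has a region assigned to Oas1a, Oas2, Oas3, Oasl1, Oasl2, Mx2, Isg15, Ifi44, Ifi27l2a or Psmb9, although the Tap1 region at chr17:34187195-34187947 also covers the start of Psmb9.

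Start regions were lower also at B2m and Irgm1, whose RNA was not called on 0.2 kPa. The region at the B2m start, chr2:122147398-122148189 in mm10, which contains the promoter printed above, had a log2 fold of -3.13 on 0.2 kPa and -2.69 on 32 kPa. The Irgm1 start region, chr11:48871318-48871815, had -2.94 and -2.32. Stat2, whose RNA fell, had -3.35 and -2.81 at chr10:128270121-128270849, and Gbp2 had -2.73 and -2.20 at chr3:142620150-142620764, which contains its printed promoter. These values are of the same order whether the RNA fell or not. Between the gels the authors' list holds 2 regions at members, both higher on 32 kPa, at Samd9l (1.01, 13 bases from the start) and Oasl1 (1.06, 3256 bases from the start). Of all 2558 regions in that list, 2551 were higher on 32 kPa, so the direction is not a result about these genes.

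Most genes fell whether or not they had an ISRE core. The 15 genes with one had a median log2 fold of -2.71 on 0.2 kPa and -3.44 on 32 kPa (12 and 13 called lower), and the 17 without one had -2.35 and -2.32 (16 called lower on each gel). Irgm1, B2m and Oas3, which were not called on 0.2 kPa, all carry a core, at 30, 139 and 75 bases before the start. Oas3 had only 6 reads over the CD1 sham libraries.

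After bleomycin the module did not move as a block. At day 14, 5 of the 42 genes rose and 5 fell relative to C57BL/6 sham, while 9.57% of the 21100 genes tested were called higher and 6.36% lower, so that the shares of the 42 called (11.9% in each direction) were a little above the background. The median log2 fold was 0.02 for the 42 genes and 0.05 for all genes. On the rescaled values, every day 14 library lay above every sham library in 8 genes and below in 4, as in 15.4% and 10.8% of all genes. On CPM the counts were 7 and 7, against 14.4% and 11.7% of all genes, since Isg15 then overlapped with sham and Ifih1, Gbp2 and Gbp7 did not. Without the 4 libraries that had few genes detected, 8 of the 42 rose and 2 fell, against 14.65% and 11.6% of all genes. Oas2, Oasl1 and Ifi27l2a were the genes added to those that rose. The calls of Irf9, Gbp2 and Gbp7 were lost (adjusted p 0.103, 0.0966 and 0.185). With a term for the sex of the library, inferred from Xist and the Y-linked Ddx3y, 2 rose (Zbp1 and Oas1a) and 3 fell (Cmpk2, Irf9 and Ifit2), against 7.82% and 5.27% of all genes.

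Zbp1 had the firmest increase. It had 28.2, 23.8, 38.5 and 25.3 CPM at day 14, against 6.79, 9.18, 5.26 and 4.48 CPM in sham. The lowest day 14 library held 23.8 CPM and the highest sham library 9.18 CPM, and the log2 fold was 2.24 ± 0.31 (adjusted p 2.3e-04). The call held when any 1 of the 8 libraries was left out. At day 56, Zbp1 had 5.38, 12.9, 8.22 and 11.8 CPM, a log2 fold of -1.77 ± 0.31 against day 14 (adjusted p 0.00161) and of 0.47 ± 0.31 against sham (adjusted p 0.855).

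The other increases at day 14 were in Irf7, Isg15, Oas1a and Ifi44. Irf7 had 44.9, 30.5, 45.0 and 32.7 CPM at day 14, against 22.6, 24.8, 20.1 and 21.0 CPM in sham (0.81 ± 0.24, adjusted p 0.0356). Isg15 had 19.5, 11.2, 17.9 and 13.7 CPM, against 7.94, 11.5, 5.76 and 7.60 CPM in sham (0.98 ± 0.29, adjusted p 0.0339). Irf7 did not overlap with sham, whereas on CPM 1 sham library of Isg15 lay above the lowest day 14 library. Oas1a had 8.01, 5.27, 5.94 and 3.94 CPM, against 0.565, 5.16, 0.985 and 1.57 CPM in sham (1.96 ± 0.55, adjusted p 0.0271). Ifi44 had 16.0, 4.96, 12.2 and 8.44 CPM, against 0, 3.54, 2.23 and 0.968 CPM in sham (3.85 ± 1.10, adjusted p 0.0284). Ifi44 had 0 reads in sham replicate 1, and its log2 fold was 2.30 without that library and 4.63 without sham replicate 2. It was 4.44 without sham replicate 3, and the call was lost without day 14 replicate 1, 3 or 4 (adjusted p 0.0567 to 0.0784). The other calls were lost when any of 6 of the 8 libraries was left out. That of Irf7 was kept without day 14 replicate 2 or 4 and otherwise had an adjusted p of 0.0516 to 0.107. That of Isg15 was kept without sham replicate 2 or day 14 replicate 2 and otherwise had 0.0509 to 0.103. That of Oas1a was kept without sham replicate 2 or day 14 replicate 4 and otherwise had 0.0531 to 0.0829. In edgeR Oas1a was not called (adjusted p 0.0888).

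The decreases at day 14 were in Cmpk2, Gbp2, Gbp7, Irf9 and Ifit2. Cmpk2 had 31.1, 12.2, 18.7 and 19.3 CPM at day 14, against 32.5, 44.1, 43.1 and 39.7 CPM in sham (-0.998 ± 0.23, adjusted p 0.00899), and its call held without any 1 library. All day 14 libraries lay below all sham libraries. Rsad2, its neighbour, had 10.6, 5.82, 7.53 and 4.89 CPM at day 14, against 1.13, 3.50, 3.53 and 4.43 CPM in sham, a log2 fold of 1.33 ± 0.49 that did not pass the test (adjusted p 0.0831).

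Gbp2 had 65.0, 42.6, 107 and 54.4 CPM at day 14, against 125, 122, 107 and 108 CPM in sham (-0.82 ± 0.23, adjusted p 0.0234). Day 14 replicate 3 was level with the lower sham libraries. Gbp7 had 41.6, 31.0, 46.5 and 35.1 CPM, against 63.9, 73.6, 50.8 and 47.0 CPM in sham (-0.56 ± 0.17, adjusted p 0.0406). Irf9 had 58.2, 33.8, 46.3 and 42.7 CPM, against 86.7, 84.2, 60.6 and 63.3 CPM in sham (-0.67 ± 0.18, adjusted p 0.0230). In the main fit it and Irf7, both factors of the type I response, were called in opposite directions. Without the 4 libraries with few genes detected, Irf9 had -0.45 and was not called (adjusted p 0.103). Irf7 was not called with libraries scaled to total reads (adjusted p 0.0519) or with a sex term (adjusted p 0.0631). Stat2, the third factor, had 45.8, 31.9, 65.2 and 49.5 CPM, against 61.0, 38.8, 45.1 and 41.5 CPM in sham (0.06 ± 0.25, adjusted p 0.908). Ifit2 had 49.6, 29.8, 39.6 and 31.8 CPM, against 72.9, 76.3, 96.8 and 84.9 CPM in sham (-1.11 ± 0.31, adjusted p 0.0234). Leaving out 1 of the 8 libraries ended the call of Gbp2 in 4 cases (sham replicate 2 and day 14 replicates 1, 2 and 4, adjusted p 0.0509 to 0.0817), of Irf9 in 4 (sham replicates 1 and 2 and day 14 replicates 2 and 4, 0.0569 to 0.0847) and of Ifit2 in 4 (sham replicates 3 and 4 and day 14 replicates 2 and 4, 0.0516 to 0.0772). The call of Gbp7 was kept only without sham replicate 4 or day 14 replicate 3 and otherwise had an adjusted p of 0.0575 to 0.134.

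For the other 32 genes limma called no change at day 14. The authors' own adjusted p was under 0.05 for Ifit1 (0.00477), Oas2 (0.00127), Oasl1 (0.0426) and Rsad2 (0.0131), all higher, and for Ifih1 (0.0368), lower. For Ifi44, called higher by limma, the authors' value was 0.0893. DESeq2 on the recovered reads also called Ifit1, Oas2 and Rsad2 higher. Oasl2 had 57.6, 27.1, 46.7 and 40.9 CPM, against 40.7, 52.9, 44.9 and 44.2 CPM in sham. Ifih1 had 12.9, 14.3, 12.8 and 11.2 CPM, against 29.2, 23.5, 15.5 and 14.8 CPM in sham (-0.60 ± 0.26, adjusted p 0.148). Ifit1 had 33.9, 18.3, 25.3 and 23.4 CPM, against 13.4, 16.1, 17.0 and 16.7 CPM in sham (0.69 ± 0.27, adjusted p 0.0983). Oasl2 overlapped with sham, whereas on CPM the day 14 libraries of Ifih1 all lay below sham and those of Ifit1 all above it, without passing the test. On the rescaled values Ifih1 overlapped with sham. Bst2 had 67.1, 46.8, 62.7 and 53.9 CPM, against 67.8, 58.5, 36.1 and 50.01 CPM in sham, Psmb8 had 59.8, 43.3, 80.0 and 55.7 CPM, against 75.8, 64.4, 45.8 and 52.0 CPM in sham, and B2m had 1648, 1089, 1469 and 1152 CPM, against 1211, 1604, 919.9 and 1012 CPM in sham, with adjusted p of 0.653, 0.939 and 0.559.

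By day 56 no member differed from sham at the threshold: limma called 0 of 42 in either direction, and 0.00474% of all genes lower and 0% higher. An unadjusted p under 0.05 was found for 6 of the 42 and for 1328 of all 21100 genes. The 6 were Ifi44 (3.87 ± 1.10), Ifit1 (0.73 ± 0.27), Trim30a (0.52 ± 0.20), Ifit2 (-0.71 ± 0.31), Irf7 (0.55 ± 0.24) and Oasl2 (0.44 ± 0.20), with adjusted p of 0.604 to 0.782. On the recovered reads, edgeR and DESeq2 also called 0 of the 42. Over all genes, edgeR called 1 lower and 0 higher, and DESeq2 called 26 lower and 54 higher. The median log2 fold was 0.18 for the 42 genes and -0.02 for all genes. Day 56 libraries differed from sham in a further way, since expression of Xist and the Y-linked Ddx3y placed all 4 day 56 libraries, 2 of 4 day 14 libraries and 1 of 4 sham libraries with females. With a sex term, 0 of the 42 were called at day 56 in either direction, as without it.

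Between the times, limma called Cmpk2, Gbp7, Gbp2 and Trim30a higher at day 56 than at day 14, and Zbp1 lower. Relative to day 14, 4 of the 42 rose and 1 fell at day 56, against 5.71% and 8.49% of all genes. Cmpk2 had 39.3, 44.7, 51.7 and 42.2 CPM at day 56 (1.08 ± 0.23 over day 14, adjusted p 0.00678), and Gbp7 had 65.8, 73.5, 58.7 and 72.0 CPM (0.70 ± 0.17, adjusted p 0.0150). Gbp2 had 98.4, 129, 115 and 133 CPM (0.77 ± 0.23, adjusted p 0.0344) and Trim30a 25.3, 28.0, 29.9 and 28.2 CPM, against 17.6, 13.5, 16.3 and 17.7 CPM at day 14 (0.66 ± 0.20, adjusted p 0.0416). The call of Gbp2 was kept only without day 14 replicate 3 or day 56 replicate 1 (otherwise adjusted p 0.0581 to 0.118) and that of Trim30a only without day 56 replicate 2 (otherwise 0.0580 to 0.133). That of Gbp7 was lost without day 14 replicate 2 (adjusted p 0.0598), and those of Cmpk2 and Zbp1 held without any 1 library. With a sex term Gbp7 and Trim30a were not called (adjusted p 0.0626 and 0.152), nor was Gbp2 in edgeR (adjusted p 0.0633). The authors' own adjusted p was under 0.05 for Cmpk2, Gbp7 and Trim30a, higher, and for Zbp1, Oas1a and Oas3, lower. For Gbp2 it was 0.0642. The contrasts of day 56 with day 14 share the day 14 libraries with the contrast against sham, so both sets of values are not independent. With the values as deposited, without rescaling, 1 of the 42 rose and 1 fell, and over all genes 777 rose and 3035 fell, whereas after rescaling 1205 rose and 1792 fell.

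Within the day 14 group the libraries did not order alike for all members. Replicate 2 was the lowest library for 32 of the 42 genes, as it was for 21% of all genes. Replicate 1 was the highest for 22 and replicate 3 for 15, against 28.8% and 20.8% of all genes. Among the immunity GTPases, replicate 3 stood out in Gbp2, Igtp and Irgm1. It stood out less in Gbp3 (34.6, 18.1, 41.4 and 21.6 CPM) and Gbp7 (41.6, 31.0, 46.5 and 35.1 CPM). Igtp had 35.7, 22.4, 83.2 and 33.7 CPM at day 14, against 32.8, 54.3, 33.7 and 39.4 CPM in sham, and Irgm1 78.5, 66.6, 121 and 64.9 CPM, against 65.5, 115, 98.0 and 96.6 CPM in sham. Cxcl9, a chemokine induced by interferon gamma, had 4.55, 3.36, 29.9 and 4.28 CPM, and Nlrc5, the activator of class I genes, 2.59, 2.61, 8.28 and 3.78 CPM in the same libraries. Ptprc, which encodes CD45, was lowest in that replicate, with 27.6, 20.5, 7.30 and 30.8 CPM.

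Leukocyte transcripts rose at day 14. The summed level of 12 leukocyte genes was 1849.9, 959, 374 and 1848 CPM in the 4 day 14 libraries, against 138 to 216 CPM in sham, and 8 of 12 rose, with none at 0. The part of leukocytes in the day 14 change of any of the 42 genes was not tested. The 4 dissociation genes all fell and the 4 cell cycle genes all rose at day 14, and their part was not tested either. At day 56 the leukocyte sum was 129.9 to 441 CPM.

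Upstream genes moved in both directions at day 14, when 9.57% of all genes tested were called higher and 6.36% lower. Of 7 receptor and kinase genes, Ifngr2 rose (0.65 ± 0.18) while Ifnar2 (-0.60 ± 0.14) and Ifngr1 (-0.58 ± 0.13) fell. Among 10 transcription factors and cofactors, Irf5 rose (0.80 ± 0.21) and Irf1 (-1.22 ± 0.19) and Irf8 (-1.06 ± 0.20) fell. Tmem173, which encodes the adaptor STING, was the only one of 12 sensing genes to pass the test (1.79 ± 0.16, adjusted p 1.3e-05), and it was lower again at day 56 than at day 14 (-1.48 ± 0.16). All 5 class II genes, which antigen-presenting leukocytes express strongly, rose by 1.19 to 1.44 on the log2 scale. Ifng was the only interferon tested, with 0.168, 0.229, 0 and 0.111 CPM at day 14, against 0, 0, 0.0259 and 0 CPM in sham, and it did not pass the test.

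The authors' list for day 14 against sham holds 18 regions assigned to 12 members, 8 higher and 10 lower. That list held 25518 regions in all, 32.08% of them lower. Both regions within 1000 bases of a member's start belonged to genes whose promoters are printed above. At Oas1a, chr5:120907418-120907668 was higher at day 14 (log2 fold 2.14, FDR 1.4e-06), and an overlapping region was higher at day 56 than in sham (1.65). At Igtp, chr11:58199136-58199918 was lower at day 14 (-1.22, FDR 1.4e-10) and an overlapping one was higher at day 56 than at day 14 (1.03). Oas1a RNA was called higher at day 14 by limma but not by edgeR (log2 fold 1.52, adjusted p 0.0888), and the limma call depended on single libraries as given above. Igtp RNA had a log2 fold of 0.02 ± 0.33 that did not pass the test (adjusted p 0.979).

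Other regions lay farther from the starts. At Oas3, 2 regions 1764 and 2599 bases from the start were higher at day 14 (3.20 and 2.09) and lower at day 56 than at day 14. The Oas3 RNA was 93 reads over the 4 day 14 libraries, against 53 over the 4 sham libraries, and its change was not called. A region 1105 bases from the Ifit2 start was lower (-1.0), as was one 3292 bases before the Mx1 start (-1.82). The region at chr19:34686322-34686494, assigned to Ifit1 from a distance of 45519 bases, was higher at day 14 (2.78) and lower at day 56 than at day 14 (-3.44), and an overlapping region was also higher on both gels than in CD1 sham (3.76 on 0.2 kPa and 4.65 on 32 kPa). The day 56 against day 14 list holds 20 member regions, 8 higher and 12 lower (60% lower), against 73.68% lower of all 21413 regions in that list.

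**Figure D4:**
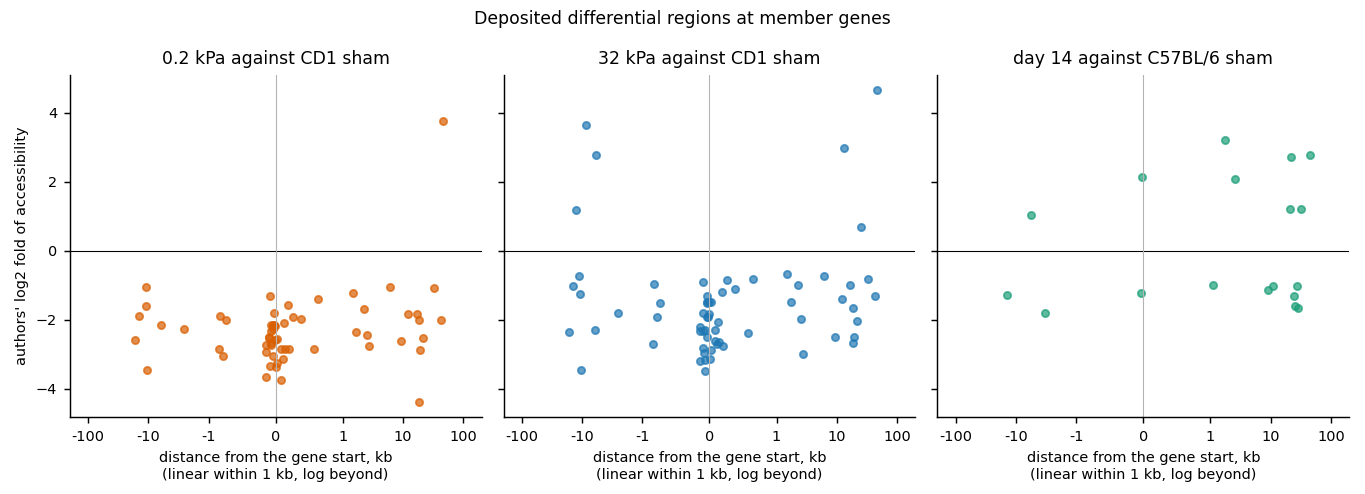
Authors' log2 fold of each region assigned to a member (vertical axis) against its distance in kb from the start of that gene (horizontal axis), for 0.2 kPa over CD1 sham, 32 kPa over CD1 sham and day 14 over C57BL/6 sham, with 1 point per region. Points near distance 0 are all below 0 in both gel panels, and the day 14 panel has points on both sides of 0.

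The culture change and the bleomycin change were compared directly, as the difference between the log2 fold of 0.2 kPa over CD1 sham and that of day 14 over C57BL/6 sham (edgeR quasi-likelihood test of the interaction on recovered reads). The difference was negative and called in 36 of the 42 genes and positive in none, against 23.1% and 20.4% of 16230 genes, with a median of -3.16 for the 42 genes and -0.07 for all. The largest difference was in Mx1, which had no reads on the gel, followed by Oas2, Ifi27l2a (-8.78, adjusted p 6.7e-10) and Zbp1 (-6.31, adjusted p 9.8e-08). The 6 genes not called were B2m, Dhx58, Ifit2, Irgm1, Oas3 and Oasl1. Strain, reporter, counting and the sort, which excluded CD31-positive cells in CD1 only, differ between the experiments as well. They cannot be told apart from the difference between culture and injury. Inferred sex was also uneven between the C57BL/6 sham and day 14 libraries.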

How the data were processed

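RNA-seq and ATAC-seq tables of sorted mouse lung mesenchymal cells were used. Per the submitters' processing notes, the genome build was mm10, and HISAT2, featureCounts from Subread, Picard, DESeq2, Bowtie2, SAMtools, MACS2, bedtools, DiffBind and HOMER were among the tools. No source used here gives their versions or says whether counting used strand.

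For RNA, the deposited values are a normalized signal in each library. Low values were whole multiples of 1 step per library, so reads were recovered, 100% of values being whole within 0.05 reads. Per the file headers, the authors also deposited a log2 fold and an adjusted p-value per RNA comparison, and log2 concentrations, a log2 fold and an FDR-adjusted p-value for each ATAC region. In the CD1 table, 855 of 27178 entries without a symbol were dropped (2.13 to 4.77% of a library's reads). A floor of 3 reads over a group was used for genes with 0 reads, and it covers counting error only.

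Libraries were rescaled by median-of-ratios factors within each table, as an earlier account of these files had done. Limma-trend (limma 3.58.1, R 4.3.3) was fitted to log2(rescaled value + 1) in 1 fit per table with a group term, for genes with a mean of at least 1. On this scale the folds of low genes can be smaller or larger than in other fits. Mx1 on 0.2 kPa had -6.73 here and -9.17 in the authors' values. At day 14, Ifi44 had 3.85 here and 2.68 in the authors' values, and Oas2 had 3.60 here and 2.98 in DESeq2. P-values were adjusted by Benjamini-Hochberg over all genes tested, with a threshold of 0.05. edgeR 4.0.16 (quasi-likelihood) tested the difference between experiments, and edgeR and DESeq2 1.42.0 served as alternatives on recovered reads. The fits were tested on simulated data. CPM are recovered reads per 1000000 of the library total, computed here. Regions in the gel lists carry no gene name and were given the nearest GENCODE vM21 start, and regions in the other lists keep the authors' gene name. Promoters came from RefSeq (GRCm38.p6), where 32 of the 42 genes matched.

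The 42 genes, the pathway and marker lists and the tests were chosen with earlier results of these data known. Per-library values are given for a fixed panel, for the called gene of largest change in each role and comparison, and for genes called against the majority. Other genes were named after their values were seen. Values of some listed genes are not reported here.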

Additional observations from a re-analysis of the deposited data

Results flagged for a closer look

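In the C57BL/6 groups of 4 libraries, 126 combinations of gene and group were checked for a single library that stood far from the other 3, and 8 were found. Chance alone flags about 1 in 20 such groups. In sham replicate 2, Ddx58 had 64.4 CPM and Parp9 had 54.9 CPM, both the highest of their group. In sham replicate 1, Oas2 had 0 CPM, the lowest, and in sham replicate 4, Mx2 had 4.57 CPM, also the lowest. In day 56 replicate 2, Bst2 had 100 CPM, Xaf1 had 45.0 CPM and Psmb9 had 35.4 CPM, all above the other day 56 libraries. In day 56 replicate 4, Oas3 had 0.0735 CPM and had no reads in the other day 56 libraries. Sham replicates 1 and 2 and day 56 replicate 2 are among the 4 libraries with the fewest genes detected.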

How the results depend on the processing

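Under every alternative run most of the 42 genes were called lower on both gels than in CD1 sham. For day 14 against sham, by contrast, it depended on the run whether more genes were called lower or higher. On the gels, the other scalings, filters, pseudocounts, the replicate block, fits of only the groups compared, edgeR and DESeq2 gave 37 or 38 genes lower and 1 higher on 0.2 kPa, and 38 or 39 lower and 1 higher on 32 kPa. Leaving out 1 library gave 36 to 38 lower on 0.2 kPa and 39 lower on 32 kPa, with 1 higher on each, and 0 to 1 lower and 0 higher for 32 kPa against 0.2 kPa. For day 14 against sham, with 5 lower and 5 higher, a sex term left 3 lower and 2 higher, and leaving out the 4 libraries with few genes left 2 lower and 8 higher. The replicate block left 3 higher, and DESeq2 gave 8 higher. Leaving out 1 library gave 1 to 5 lower and 1 to 4 higher. For day 56 against sham, leaving out 1 library gave 0 in both directions. For day 56 against day 14, with 1 lower and 4 higher, 2 were lower without the 4 libraries and under DESeq2, while 1 was higher with the values as deposited, and 2 were higher with the replicate block and 2 with the sex term. Without the 4 libraries 6 were higher, against 9.598% of all genes higher and 13.52% lower. Ifit2, Irf9 and Parp14 (log2 fold 0.60, in place of -0.06) were then added as higher and Isg15 as lower, and the call of Gbp2 was lost. Leaving out 1 library gave 1 to 2 lower and 1 to 3 higher. For the difference between culture and injury, leaving out 1 library gave 33 to 36 lower. Taking only regions with an absolute log2 fold of at least 2 left 84 of 166 member regions. The cause of these shifts was not tested. With the values as deposited, the median log2 fold of all genes at day 56 over sham was -0.22. Oas3 had 6 reads over the 3 CD1 sham libraries, and no change in it was detectable at that depth. Counting genes whose groups do not overlap on CPM was added after seeing the data, and it moved the day 14 count below sham to 7, in place of 4. Same-numbered libraries did not deviate together (correlations of -0.16 to 0.069 in CD1 and -0.158 to 0.115 in C57BL/6), so replicate numbers were not treated as pairs and a call lost under the block is not read as a weaker effect.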
